A study of Haplochromis burtoni and Eretmodus cyanostictus and Lepidiolamprologus attenuatus with 30 samples.

Results

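The last 2 of the 5 consecutive sections of the cichlid intestine, section 5 at the posterior end and section 4 just before it, were compared within the same fish in 3 species. The comparison used 12 of the 30 libraries of the series, those of sections 5 and 4, as 6 pairs of 1 section 5 and 1 section 4 library from the same fish. The bulk RNA came from whole intestinal tissue of Haplochromis burtoni fish 1 and 2, Eretmodus cyanostictus fish 3 and 4, and Lepidiolamprologus attenuatus fish 6 and 7. Each intestine had been divided by length alone, so a section is a relative position and may hold different parts of the gut in different species. No treatment or mutation is named for any fish, and their age and sex are not given in the sources used here.

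The hind part of a teleost intestine is known for taking up whole proteins into enterocytes rich in lysosomes, described best in zebrafish, and for handling ions and water before the rectum. The anterior part absorbs most lipid, sugars and small peptides. As background on the species, E. cyanostictus grazes algae from rocks, L. attenuatus hunts other fish, and H. burtoni has a mixed diet. The deposited table identifies genes by number only. None of its 38425 gene IDs (0) matched the 28690 entries of the H. burtoni gene table used here, so no gene is named, its role is not given, and the tissue label could not be checked against marker genes.

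Gene counts per library lay between 6726018 and 10542369 in section 5 and between 6311892 and 9253423 in section 4. Between 20562 and 22410 genes in section 5 libraries, and between 20194 and 21737 in section 4 libraries, had more than 3 counts. One library stood apart. In section 4 of H. burtoni fish 2, 16.5% of the counts overlapped no counted gene (95% Wilson interval 16.4% to 16.5%, counting error only), against 7.53% to 9.82% in the other 11 libraries, and its gene count of 6311892 was the lowest of the 12. Counts and shares that moved when fish 2 was left out are given below with and without it. In bulk tissue, fewer cells of a type and less RNA per cell cannot be told apart, so every level below is one of the tissue and not of a cell.

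Few genes passed the test of a common step over the 6 fish, and how few depended on the tool. In a fit with each fish as its own block, 3 of 18528 tested genes differed between section 5 and section 4 (0.0162%; edgeR quasi-likelihood test, adjusted p under 0.05). Of these, 2 were higher in section 5 (0.0108%) and 1 was lower (0.0054%). With the same design DESeq2 called 184 genes, 64 higher and 120 lower. At an unadjusted p under 0.05 in edgeR there were 1444 genes, 7.794% of those tested. The median log2 change over all tested genes was 0.00434. A fitted change of at least 2-fold was found for 73 genes that were higher and 173 that were lower in section 5. The naming rule asked for a mean of at least 20 CPM (gene counts scaled to the size of each library) in the higher section. Neither of the 2 higher genes met it, and they are described as the only such calls, a choice made after their values were seen.

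Gene ID 100701009 was nearly silent ahead of section 5 and present there in every fish. In section 5 its level was 21.5 and 9.13 CPM in fish 1 and 2 of H. burtoni, 4.12 and 4.9 CPM in fish 3 and 4 of E. cyanostictus, and 1.33 and 0.928 CPM in L. attenuatus fish 6 and 7. In section 4 it stood at 1.23 and 0 CPM in H. burtoni, 0.271 and 0.189 CPM in E. cyanostictus, and 0 CPM in both L. attenuatus fish. Every fish was higher in section 5, but the groups overlapped, since the section 4 value of fish 1 exceeded the section 5 value of fish 7. In sections 1 to 3 no library held more than 3 counts of this gene. The fitted log2 change over all fish was 4.61 (SE 0.38, n = 6 fish, edgeR adjusted p = 0.016). Against the 3 section 4 libraries at 0 counts only a lower bound can be given, with a floor of 3 counts per library. Section 5 was at least 18-fold higher in fish 2, at least 4.18-fold higher in fish 6 and at least 2.68-fold higher in fish 7. The L. attenuatus values rest on 9 and 8 counts in section 5.

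Gene ID 102077349 was also low ahead of section 5, with the species in another order. Its section 5 values were 2.31 and 1.22 CPM in fish 1 and 2 of H. burtoni, 7.78 and 9.15 CPM in fish 3 and 4 of E. cyanostictus, and 7.55 and 15.8 CPM in fish 6 and 7 of L. attenuatus. The section 4 values were 0.123 and 0 CPM in H. burtoni, 0.814 and 1.70 CPM in E. cyanostictus, and 0.212 and 0.809 CPM in L. attenuatus. The sections overlapped between fish but not within one. The log2 change was 3.55 over all fish (SE 0.35, n = 6, edgeR adjusted p = 0.0325). It was 4.49 in L. attenuatus (SE 0.42, edgeR adjusted p = 0.00807) and 2.71 in E. cyanostictus (SE 0.36, edgeR adjusted p = 0.0685, not past the threshold). In H. burtoni it was 4.48 (SE 0.79) and did not pass either (edgeR adjusted p = 0.112). In H. burtoni fish 2 section 5 was at least 2.42-fold higher, again against a floor of 3 counts.

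Gene ID 100697991 was the single gene called lower, and it was far more abundant. Its section 5 level was 140 and 288 CPM in fish 1 and 2 of H. burtoni, 182 and 53.3 CPM in fish 3 and 4 of E. cyanostictus, and 807 and 280 CPM in fish 6 and 7 of L. attenuatus. In section 4 the values were 552 and 959 CPM in H. burtoni, 685 and 173 CPM in E. cyanostictus, and 1440 and 1420 CPM in L. attenuatus. Each fish was lower in section 5 than in its own section 4, while the groups overlapped across fish. The log2 change was -1.76 (SE 0.18, n = 6, edgeR adjusted p = 0.0325), and by species it was -1.85 (H. burtoni), -1.83 (E. cyanostictus) and -1.61 (L. attenuatus). Averaged over the 6 fish on the log2 CPM scale, this gene climbed along the gut from a level of 2.81 in section 1 to 3.75, 7.55 and 9.47 in sections 2, 3 and 4, with 7.72 in section 5. In 4 of the 6 fish its highest level of the gut was in section 4, while in fish 1 and fish 4 section 3 was higher, at 591 and 570 CPM. Of the 2 higher genes, ID 102077349 was already present in section 4 with 6, 18 and 7 counts in fish 3, 4 and 7.

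**Figure D1:**
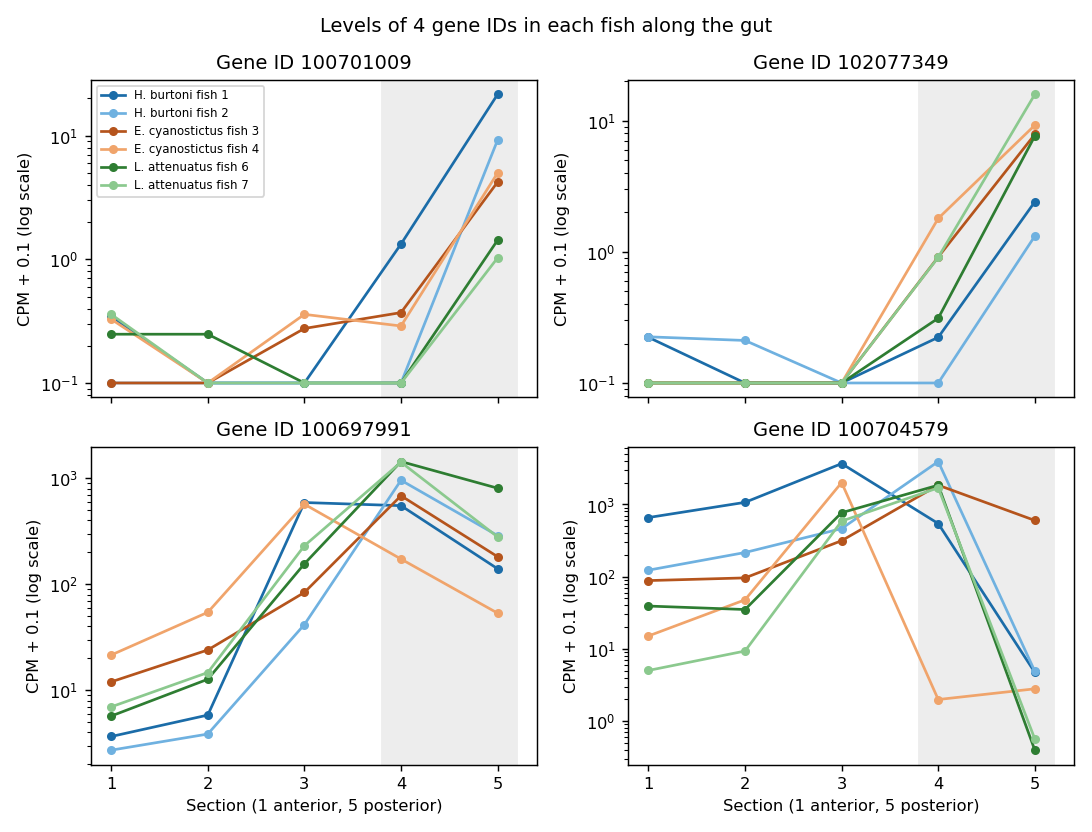
Level of 4 gene IDs (CPM + 0.1, log axis) in the 5 sections of each fish, 1 line per fish, with sections 4 and 5 shaded. IDs 100701009 and 102077349 are higher in section 5 than in section 4 in all 6 fish, ID 100697991 is lower in section 5 than in section 4 in each fish, and ID 100704579 is below 5 CPM in section 5 of every fish but E. cyanostictus fish 3 (601 CPM).

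These 3 calls were few in number and depended on single fish. Leaving out fish 2 also gave a count of 3, but ID 100697991 was no longer called (edgeR adjusted p = 0.0789). Without fish 4 the count was 1 and without fish 6 it was 13, while without fish 1, 3 or 7 it was 0 in edgeR. In these last fits 1298 of 18745, 1358 of 18559 and 1152 of 18610 genes were at an unadjusted p under 0.05.

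A looser description counts direction only. At 871 of the 18528 genes (4.701%) all 6 fish moved the same way between the sections, 385 of them higher and 486 lower in section 5. Of these, 37 were higher and 49 lower by at least 2-fold on average over the fish. Both groups were chosen by the values described here, so they carry no test. The 37 higher genes had a median of 3.59 log2 CPM in section 5 and 1.68 in section 4, after 0.399, 0.263 and 0.539 in sections 1, 2 and 3, and 35 of them (94.6%) had their highest level of the whole gut in section 5. Of the 21329 genes tested in the species fit described below, 31.2% had their highest level in section 5. The share of 94.6% is partly fixed by the choice of these genes for a higher level in section 5 than in section 4. The 49 lower genes were abundant along most of the gut, with a median of 3.85 log2 CPM in section 5 and 5.15 in section 4, after 5.55, 5.77 and 5.93 in sections 1 to 3. In section 5 they took 0.108% to 0.300% of the gene counts. In section 4 they took 10.5% in fish 2 and 3.84% in fish 3, but 0.240% in fish 4 and 1.295% to 1.599% in the other 3 fish. The largest share was thus in the section 4 library that also had the most reads outside genes, and the part of that library in these values was not tested.

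The point along the gut where these 49 genes dropped was not the same in all fish. In fish 1 and fish 4 most of the drop had come a section earlier, with median log2 changes of -2.13 and -1.75 for section 4 over section 3. For the same step the other 4 fish had medians of -0.188 (fish 2), -0.0277 (fish 3), -0.574 (fish 6) and -0.551 (fish 7). For section 5 over section 4 the medians were -1.19 and -2.63 in H. burtoni fish 1 and 2, -0.876 and -0.548 in E. cyanostictus fish 3 and 4, and -1.82 and -1.72 in L. attenuatus fish 6 and 7. No gene (0) was above 3 counts in all 6 section 5 libraries and at or under 3 in all 6 section 4 libraries, and none was in the reverse state.

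The number of genes called within single species differed from one species to the next, which does not test their steps against each other. In 1 fit of the 12 libraries with a step for each species, 117 of 21329 genes were called in L. attenuatus (0.549%; edgeR, adjusted p under 0.05, n = 2 fish), 31 higher (0.145%) and 86 lower (0.403%) in section 5. In H. burtoni 33 genes were called (0.155%), 9 higher (0.0422%) and 24 lower (0.113%). In E. cyanostictus 12 genes were called (0.0563%), 8 higher (0.0375%) and 4 lower (0.0188%). Genes at an unadjusted p under 0.05 numbered 1995 (9.353%), 2210 (10.36%) and 816 (3.826%) in L. attenuatus, H. burtoni and E. cyanostictus. With no difference at any gene, a share of about 0.05 would fall under this threshold. Among these calls losses outnumbered gains in L. attenuatus and H. burtoni and were the smaller group in E. cyanostictus. Every called gene in each species had a fitted change of at least 2-fold, which need not hold in each of the 2 fish. Only 7 of the 8 genes called higher in E. cyanostictus were higher in fish 4. Likewise, 23 of the 24 genes called lower in H. burtoni were lower in fish 1. Among those called, the median log2 change of the higher genes was 2.17 in L. attenuatus, 5.18 in H. burtoni and 5.76 in E. cyanostictus. That of the lower genes was -3.03, -5.61 and -2.46 in the same order.

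The counts rest on 2 fish each and moved when each species was fitted alone or single fish were left out. Fitted alone, L. attenuatus had 216 calls, H. burtoni 16 and E. cyanostictus 155, so the order of the species changed. Where a fish of the species itself is left out, its step is tested on the 1 remaining pair, which is assumed to vary like the pairs of the other species. The L. attenuatus count was 29 without fish 6 and 15 without fish 7, but 292 without fish 1 and also without fish 2. The H. burtoni count was 542 without fish 1 and 9 without fish 2, the fish whose section 4 library stood apart. In E. cyanostictus it was 1 without fish 3 and 2 without fish 4.

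Most called genes were called in 1 species only, and with 2 fish per species a missing call does not show a missing step. Of all tested genes 125 were called in 1 species, 17 in 2 species, and 1 in all 3, which was higher in section 5 in each. L. attenuatus and H. burtoni had 14 calls in common, 12% of the first list and 42.4% of the second. Of all tested genes, 0.549%, 0.155% and 0.0563% were called in L. attenuatus, H. burtoni and E. cyanostictus. Of the 14 common calls 4 were higher and 10 lower, with no gene moving in opposite directions. E. cyanostictus shared 3 genes with H. burtoni, all in the same direction (25% of its list and 9.09% of the other). It shared 3 with L. attenuatus (25% of its list and 2.56% of the other), of which 1 moved in opposite directions.

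E. cyanostictus moved with the gains of H. burtoni more often than with its losses, which is a description, since gains were not tested against losses. The 9 genes called higher in H. burtoni were higher in section 5 in both E. cyanostictus fish at all 9 genes, with median log2 changes of 2.50 in fish 3 and 2.04 in fish 4. The medians were 1.66 and 1.80 in L. attenuatus fish 6 and 7, where 9 and 8 of the 9 genes were higher. In H. burtoni itself, where they were called, the medians were 4.46 and 5.02. Of the 24 genes called lower in H. burtoni, 21 were lower in each L. attenuatus fish, with medians of -1.70 and -1.69. In E. cyanostictus 14 were lower in fish 3 and 13 in fish 4, with medians of -0.0914 and -0.135. Of all tested genes, E. cyanostictus had the sign of the H. burtoni step at 46.3% and L. attenuatus at 56.4%, by the changes fitted in edgeR. The 33 genes of the H. burtoni list had shares of 66.7% in E. cyanostictus fish and 87.9% in L. attenuatus fish. Without fish 2 the H. burtoni list held 9 genes, and the shares were 100% and 88.9%.

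The longer L. attenuatus list gave the same order. Of its 86 lower genes, 69 and 77 were lower in H. burtoni fish 1 and 2, with medians of -0.437 and -1.21, while 46 and 36 were lower in E. cyanostictus fish 3 and 4, with medians of -0.0796 and 0.0408. In L. attenuatus itself, where they were called, the medians were -2.79 and -2.71. Of the 31 higher genes, 25 were higher in each H. burtoni fish and 23 and 19 in E. cyanostictus fish 3 and 4, with medians of 0.422, 0.817, 0.410 and 0.314 in fish 1, 2, 3 and 4. As a whole, 85.5% of the 117 genes had the same sign of the mean step in H. burtoni and 53.8% in E. cyanostictus. All tested genes gave 56.4% and 48.2% by the changes fitted in edgeR. Without fish 2 the list called in L. attenuatus had 65.4% in H. burtoni and 49.3% in E. cyanostictus. A step of at least 2-fold in the mean of the other species was seen in the same direction at 52 of the 117 genes and in the opposite direction at 2 in H. burtoni. In E. cyanostictus these counts were 11 and 7. Over all 21329 tested genes, fitted steps of at least 2-fold numbered 846 higher and 1095 lower in H. burtoni, and 637 and 413 in E. cyanostictus. These are changes fitted by edgeR and not means over the fish, so they are only a rough guide.

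**Figure D2:**
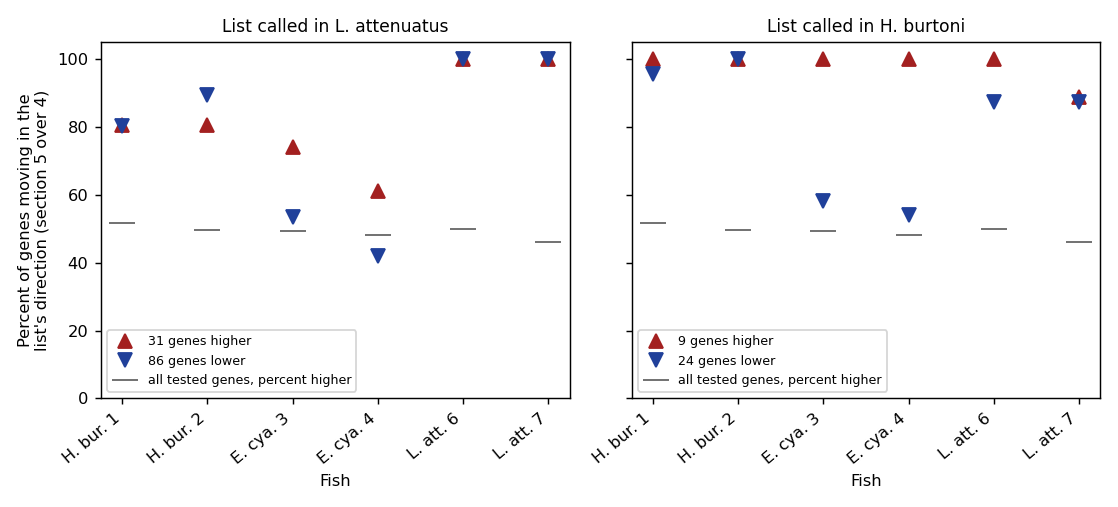
Percent of the genes called in L. attenuatus (left) and in H. burtoni (right) that moved in the called direction between section 5 and section 4, in each fish, for genes called higher (up triangles) and lower (down triangles). Short lines give the percent of all tested genes that were higher in section 5. In E. cyanostictus fish 3 and 4 all 9 H. burtoni gains were also higher, while 14 and 13 of its 24 losses were lower.

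The 14 calls common to H. burtoni and L. attenuatus belong to both lists above, so they describe some of the same genes again, without a test. The 4 higher genes were higher in section 5 in both E. cyanostictus fish, with medians of 1.72 and 1.47. The 10 lower genes were lower at 6 genes in fish 3 and at 4 in fish 4, with medians of -0.884 and 0.0855. Of all tested genes, 49.49% and 48.13% were higher and 49.6% and 50.9% lower in E. cyanostictus fish 3 and 4. In the species where they were called, the medians of these 10 genes were -3.43 and -6.60 in H. burtoni fish 1 and 2 and -6.45 and -5.70 in L. attenuatus fish 6 and 7.

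The levels in the whole gut showed where each fish stood before the last step. The 86 genes lower in L. attenuatus stood in section 3 at medians of 6.07 and 6.87 log2 CPM in L. attenuatus fish 6 and 7. They stood at 5.43 and 5.99 in section 4 and at 2.0 and 2.43 in section 5. The genes were called for a fall at the last step in these same fish, where their medians on this scale were -2.76 and -2.69. For section 4 over section 3 the medians were -0.881 and -0.912, and 39 and 41 of the 86 genes were already lower by at least 2-fold. In L. attenuatus 80 of the 86 genes (93%) had their lowest level of the gut in section 5, against 25.8% of all tested genes, a share that their choice partly fixes. In H. burtoni fish 1 the medians were 5.76, 3.53 and 2.33 in sections 3, 4 and 5, and in fish 2 they were 6.12, 5.03 and 2.53. The 2 fish of this species were close in section 5 and far apart in section 4. In E. cyanostictus fish 4 the medians were 4.53, 2.46 and 2.31, so that the level of section 5 was already present in section 4. In E. cyanostictus fish 3 they were 5.39, 4.25 and 4.34, and the genes stayed at an intermediate level to the end. The small step of E. cyanostictus was thus made of 2 fish with different courses.

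**Figure D3:**
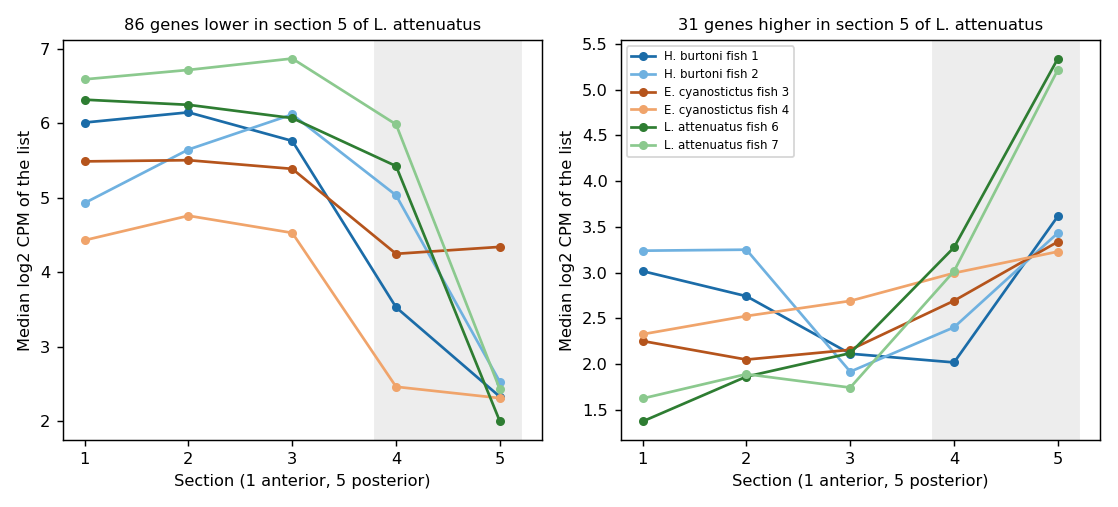
Median log2 CPM of the 86 genes called lower (left) and the 31 called higher (right) in section 5 of L. attenuatus, in the 5 sections of each fish, with sections 4 and 5 shaded. The lower genes end at 2.0 to 2.53 in every fish except E. cyanostictus fish 3 (4.34). The higher genes end at 5.34 and 5.22 in L. attenuatus and at 3.23 to 3.62 in the other fish.

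The share of the gene counts held by these 86 genes, which follows the most abundant of them, ordered the fish in another way than the median. In L. attenuatus fish 6 and 7 it was 0.187% and 0.228% in section 5 and 1.46% and 1.74% in section 4. In H. burtoni fish 1 and 2 it was 0.720% and 0.518% in section 5 and 0.755% and 1.34% in section 4. In E. cyanostictus fish 3 and 4 it was 0.650% and 0.396% in section 5 and 0.762% and 0.411% in section 4. The sections did not overlap in L. attenuatus, where the genes were chosen, and differed little in fish 1, 3 and 4. Fish 1 had the highest share of all 6 fish in section 5, although its median was close to that of 4 other fish.

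The 24 genes lower in H. burtoni had the same shape. In H. burtoni fish 1 their median log2 CPM was 6.34 in section 3, 2.95 in section 4 and -0.27 in section 5, and in fish 2 it was 7.61, 6.22 and 0.60. In E. cyanostictus fish 4 it was 5.32, -0.20 and -0.12, and in fish 3 it was 5.81, 4.73 and 4.34. In L. attenuatus fish 6 and 7 the medians were 1.41 and 2.94 in section 5 and 5.63 and 6.27 in section 4. The 9 genes higher in H. burtoni had medians of 4.97 and 3.69 in section 5 and 0.55 and -0.81 in section 4 of H. burtoni fish 1 and 2. They reached like or higher levels in the other species, with 5.37 and 5.48 in section 5 and 1.68 and 2.28 in section 4 of E. cyanostictus fish 3 and 4, and 4.66 and 4.40 in section 5 and 2.55 and 3.02 in section 4 of L. attenuatus fish 6 and 7. In those species section 4 stood higher and the step was smaller than in H. burtoni. The genes were called for a rise in H. burtoni, which itself favours a low section 4 and a large step there. These differences therefore carry no test.

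All 4 genes called lower in E. cyanostictus had their highest mean level of the gut in section 4, against 22.7% of all tested genes in this species. Their choice for a fall from section 4 partly fixes this. Of the genes called lower in their own species, 4 of 24 in H. burtoni (16.7%) and 13 of 86 in L. attenuatus (15.1%) were highest in section 4. These shares were near those of all tested genes in the same species, 12.5% and 14.9%. In fish 3 the median log2 CPM of the 4 E. cyanostictus genes was 0.19, 5.05 and 2.64 in sections 3, 4 and 5. In fish 4 it was 6.56, 6.39 and 4.35. In each H. burtoni and L. attenuatus fish 1 or 2 of the 4 genes were lower, where 47.2% to 52.7% of all tested genes were lower. Of the 8 genes called higher in E. cyanostictus, 7 and 6 were higher in H. burtoni fish 1 and 2 and 5 in each L. attenuatus fish. For the 12 genes together, 66.7% had the same sign of the mean step in H. burtoni and 58.3% in L. attenuatus. All tested genes gave 46.3% and 48.2% by the changes fitted in edgeR. With fish 2 left out, the list called in E. cyanostictus had shares of 73.3% in H. burtoni fish 1 and 53.3% in L. attenuatus.

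Gene ID 100704579 is given as an example of a loss shared by H. burtoni and L. attenuatus. It was chosen after its values were seen, as the largest mean fall among the 9 genes called lower in both species with at least 20 CPM in section 4. In section 5 its level was 4.62 and 4.79 CPM in fish 1 and 2 of H. burtoni, 601 and 2.7 CPM in fish 3 and 4 of E. cyanostictus, and 0.296 and 0.464 CPM in fish 6 and 7 of L. attenuatus. In section 4 it stood at 544 and 3930 CPM in H. burtoni, 1850 and 1.89 CPM in E. cyanostictus, and 1850 and 1700 CPM in L. attenuatus. The sections were far apart in H. burtoni and L. attenuatus, whereas E. cyanostictus fish 3 was high in both and fish 4 low in both. In section 3 fish 4 had held 2010 CPM, so its loss lay a section earlier. H. burtoni fish 1 had also fallen before the last step, from 3680 CPM in section 3 to 544 CPM in section 4.

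The log2 change of this gene was -8.31 in H. burtoni (SE 0.84, edgeR adjusted p = 0.0137) and -12.1 in L. attenuatus (SE 1.01, edgeR adjusted p = 0.00468). The L. attenuatus value rests on 2 and 4 counts in section 5 and its size is imprecise. In E. cyanostictus the change was -0.842 (SE 0.68, edgeR adjusted p = 1). The difference of L. attenuatus minus E. cyanostictus was itself called, at -11.3 (SE 1.16, edgeR adjusted p = 0.0305). The difference of E. cyanostictus minus H. burtoni was 7.47 (SE 1.0) and did not pass (edgeR adjusted p = 0.112). Over the alternatives the change stayed between -9.69 and -6.84 in H. burtoni and between -12.6 and -11.8 in L. attenuatus. The adjusted p was under 0.05 in 6 of 12 alternatives in H. burtoni (5.02e-15 with DESeq2 to 0.987 in edgeR) and in 7 of 12 in L. attenuatus (9.46e-25 with DESeq2 to 0.82 in edgeR). Without fish 6 or without fish 7 neither species' change passed, with edgeR adjusted p-values between 0.141 and 0.213.

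Whether the step differed between species was tested directly for every gene. L. attenuatus minus E. cyanostictus gave 10 of 21329 genes (0.0469%; edgeR, adjusted p under 0.05). All 10 (0.0469%) had the more negative step in L. attenuatus and none (0%) the more positive. E. cyanostictus minus H. burtoni gave 7 genes (0.0328%), 5 with the more positive step in E. cyanostictus (0.0234%) and 2 with the more negative (0.00938%). L. attenuatus minus H. burtoni gave 6 genes (0.0281%), 2 more positive (0.00938%) and 4 more negative (0.0188%) in L. attenuatus. A joint test over the 3 species gave 9 genes (0.0422%). Of the called differences, 7 of 10, 6 of 7 and 4 of 6 in these pairs had steps of opposite sign. Of all tested genes, 47.44%, 45.88% and 55.99% had mean steps of the same sign in these pairs. A call for a difference itself favours opposite signs, so these counts carry no test. Of the 86 genes lower in L. attenuatus, 10 differed in their step from E. cyanostictus and 3 from H. burtoni. Among its 31 higher genes no difference (0) from either species was called by edgeR. None of the 3 genes of the common step was among the 9.

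These counts were sensitive to single fish. Without fish 1 the pair L. attenuatus and E. cyanostictus had 85 calls, E. cyanostictus and H. burtoni 202, and L. attenuatus and H. burtoni 41. Without fish 2 these pairs had 68, 2 and 3 calls, and the joint test 33. Without fish 3 they had 1, 0 and 2 by edgeR, the 0 with 949 genes at an unadjusted p under 0.05. Without fish 3, 22086 genes were tested for these differences. Most genes with a step in 1 species and none called in another were thus not shown to differ between the species.

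The steps of whole transcriptomes were weakly alike, within species and between some of them. The section 5 minus section 4 change in log2 CPM was correlated across 21329 genes for the 15 pairs of fish. These are descriptions, since genes are not independent and the fish of a species share it. Within species Pearson's r was 0.324 between the H. burtoni fish, 0.221 between those of E. cyanostictus and 0.267 between those of L. attenuatus. By Spearman's rho these values were 0.23, 0.169 and 0.0536, and the 2 L. attenuatus fish moved the same way at 49.67% of genes. Between species Pearson's r averaged 0.0815 over 12 pairs, with a range from -0.154 to 0.369. Spearman's rho averaged 0.0176 over the same pairs, with a range from -0.223 to 0.287. The highest r of all 15 was between H. burtoni fish 2 and L. attenuatus fish 6 (0.369), 2 fish of different species, and so was the highest rho (0.287). H. burtoni fish 2 and L. attenuatus fish 7 had r = 0.219, and H. burtoni fish 1 had 0.207 with fish 6 and 0.0347 with fish 7. E. cyanostictus fish 4 ran weakly against H. burtoni fish 2 (-0.0979) and L. attenuatus fish 6 (-0.154). With the 2 fish of a species averaged, r was 0.351 between L. attenuatus and H. burtoni. It was 0.0237 between E. cyanostictus and H. burtoni and 0.0102 between L. attenuatus and E. cyanostictus. Spearman's rho was 0.208, -0.0818 and -0.0340 in the same order. The highest likeness involved the fish 2 section 4 library that stood apart, and its part in that value was not tested beyond leaving the fish out, which gave a mean of 0.0542 between species.

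**Figure D4:**
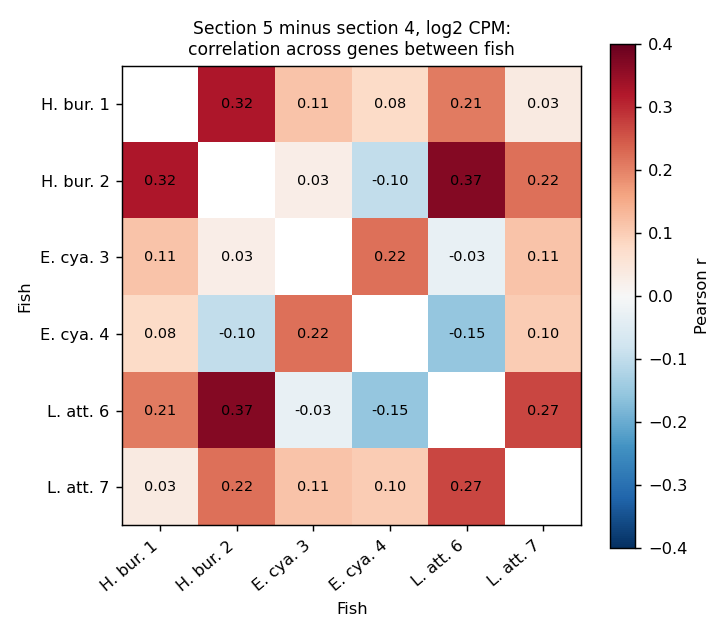
Pearson's r across 21329 genes of the log2 CPM change, section 5 minus section 4, between each pair of the 6 fish. Values within species are 0.221 to 0.324, and the highest value between species is 0.369, for H. burtoni fish 2 and L. attenuatus fish 6.

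Each species was next compared with the other 2 as a guide. The common step of H. burtoni and L. attenuatus, fitted on their 4 fish, held 37 called genes of 18843 tested, 9 higher and 28 lower (edgeR, adjusted p under 0.05). In E. cyanostictus, which had no part in that fit, 27 of the 37 (73%) had the same sign of the mean step, against 45.4% of all tested genes. By direction, 8 of the 9 higher genes and 19 of the 28 lower genes had the same sign. The share was 78.4% in fish 3 and 48.6% in fish 4. The size was much smaller, with a median change along the called direction of 0.356 in E. cyanostictus and a median absolute change of 4.51 in the other 2 species, and a least squares slope of 0.188. The common step of H. burtoni and E. cyanostictus held 6 called genes, and 3 of them (50%) had the same sign in L. attenuatus, against 54.4% of all tested genes. Without fish 2 the share was 55% in E. cyanostictus fish and 67.9% in L. attenuatus fish. The common step of L. attenuatus and E. cyanostictus held no called gene in edgeR (0), with 1070 of 19244 genes at an unadjusted p under 0.05 and 90 called by DESeq2, so H. burtoni could not be set against it.

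The last step was not shown to be larger or smaller than the earlier ones. Its size was taken in each fish as the root mean square log2 CPM change over 22430 genes. From section 4 to section 5 this was 0.537 and 0.882 in H. burtoni fish 1 and 2, 0.539 and 0.499 in E. cyanostictus fish 3 and 4, and 0.711 and 0.677 in L. attenuatus fish 6 and 7. Fish 2 had the largest value, and fish 1 stood with the E. cyanostictus fish. The mean over the 6 fish was 0.641 ± 0.145 (SD, n = 6), set beside 0.839 ± 0.081 for section 4 over section 3. The last step was the smaller of these in 5 of the 6 fish, with a mean difference of -0.198 (exact sign-flip permutation test over fish, two-sided, p = 0.0625, adjusted 0.188 over 3 comparisons). Section 2 over section 1 averaged 0.602 ± 0.034 and section 3 over section 2 averaged 0.665 ± 0.066, and neither differed from the last step beyond the spread between fish (differences of 0.0383 and -0.0243, exact permutation p = 0.594 and 0.75, both adjusted 0.75). The smallest p this design allows is 0.0312.

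**Figure D5:**
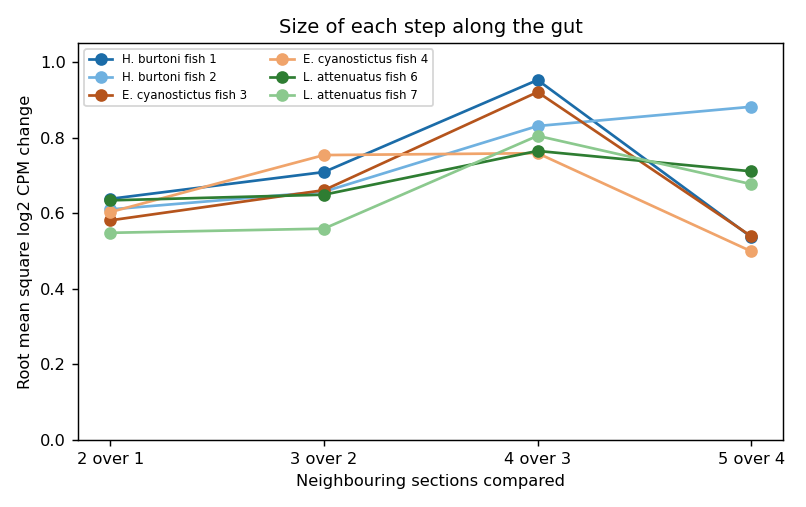
Root mean square log2 CPM change between neighbouring sections in each of the 6 fish, for the 4 steps along the gut, 1 line per fish. In 5 of 6 fish the step from section 4 to section 5 is smaller than that from section 3 to section 4, and fish 2 is the exception.

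The most abundant genes turned over least in fish 1. Of its 100 most abundant genes in section 4, 86 were also among the 100 most abundant in section 5. The number was 62 in H. burtoni fish 2, 76 and 75 in E. cyanostictus fish 3 and 4, and 66 and 67 in L. attenuatus fish 6 and 7. Both fish of a species moved by at least 2-fold in the same direction at 189 higher and 323 lower genes in L. attenuatus, at 164 higher and 242 lower in H. burtoni, and at 142 higher and 67 lower in E. cyanostictus. The 2 fish moved by at least 2-fold in opposite directions at 154, 142 and 83 genes in the same order of species. E. cyanostictus was thus the species with more shared gains than losses by this count as well as by its calls, a description without a test. Of all 21329 genes, scaled over 30 libraries, 2-fold gains and losses in single fish numbered 620 and 476 in fish 3 and 683 and 348 in fish 4. They numbered 537 and 666 in fish 1, 1927 and 1745 in fish 2, 1155 and 1301 in fish 6, and 1188 and 960 in fish 7. The counts for both fish of a species were scaled over 12 libraries. Over the 22430 genes used for step size, also scaled over 30 libraries, fish 7 had 1081 gains and 1186 losses. Its order of gains and losses thus depended on the processing, while that of the other fish held.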

How the data were processed

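RNA of 30 intestinal libraries was measured by bulk sequencing, per the labels. The submitters' processing notes name Trimmomatic, STAR and HTSeq, with versions, genome build and strand setting not given in the sources used here. The authors deposited 1 table of raw counts per gene, whose rows for unassigned reads (7.53% to 16.5% of counts outside genes and 2.92% to 3.45% ambiguous in the 12 libraries) were left out of library sizes and tests. Reads of paralogous, overlapping or antisense genes, and reads lost because a species differs from the reference, could not be separated.

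H. burtoni columns carry the fish numbers of the labels. E. cyanostictus columns carry 3 and 4 and L. attenuatus columns 6 and 7, where the labels number each species' fish 1 and 2; columns were matched by species and section, and sections were paired by the column's number. The labels number separate fish, which the p-values treat as independent. The difference between the 2 fish of a species correlated across genes between sections 5 and 4 (r = 0.401 in H. burtoni, 0.658 in E. cyanostictus, 0.387 in L. attenuatus), and the fish of each group differed beyond sampling noise (chi-square per degree of freedom 12.6 to 74.9).

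Counts were analysed with edgeR 4.0.16 (limma 3.58.1) in R 4.3.3. The filterByExpr function selected the genes, libraries were scaled by TMM, dispersions estimated robustly and coefficients tested by the quasi-likelihood F-test with Benjamini-Hochberg adjustment over all tested genes. The common fit had fish and section, filtered by section. The species fit had fish and a section step per species, filtered by species and section. SE is the absolute log2 change over the square root of F. Steps per fish and levels are log2 CPM with a prior count of 2, scaled over 12 libraries for steps and over all 30 for levels along the gut. The test scripts were run on simulated counts beforehand. Alternatives were RLE scaling, no filter, DESeq2 1.42.0, no fish block, all 30 libraries, each species alone, an adjusted p under 0.01, a prior count of 5, minimum CPM filters and leaving out each fish. The threshold of 0.01 leaves the adjusted p itself unchanged and is not among the alternatives counted for single gene IDs.

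Named genes were to be those called in the common step with 1 direction in all 6 fish and at least 20 CPM in the higher section, by symbol, plus called members of 24 gene lists (243 symbols). No ID could be matched to a symbol in the H. burtoni table of assembly NCSU_Asbu1, so the lists were not tested (0 testable) and at most 2 IDs per direction are given. The comparison, lists and tests were chosen with earlier results of these data known.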

Additional observations from a re-analysis of the deposited data

Results flagged for a closer look

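Single libraries far from the other 5 of their section were looked for in 19 sets of 6 libraries, and 4 were found. The rule flags about 1 in 20 sets (0.95) only for normal values of 1 population, which 3 species need not give. The gene IDs were also chosen for their values in these sections, so the 4 cannot be set against 0.95. In section 4, 16.5% of the counts of H. burtoni fish 2 lay outside genes. Gene ID 100701009 stood at 1.23 CPM in section 4 of H. burtoni fish 1, where the next value was 0.271 CPM. Gene ID 100697991 stood at 807 CPM in section 5 of L. attenuatus fish 6, where the next value was 288 CPM. Gene ID 100704579 stood at 601 CPM in section 5 of E. cyanostictus fish 3, where the other 5 libraries were between 0.296 and 4.79 CPM.

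By the direct test of the difference in edgeR, the step from section 4 to section 5 differed between E. cyanostictus and H. burtoni at 7 genes, between L. attenuatus and H. burtoni at 6 genes and between L. attenuatus and E. cyanostictus at 10 genes. The joint test of the 3 species gave 9 genes.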

How the results depend on the processing

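Counts of called genes depended on the processing. They are given in the order common step, H. burtoni, E. cyanostictus, L. attenuatus, then the differences E. cyanostictus minus H. burtoni, L. attenuatus minus H. burtoni, L. attenuatus minus E. cyanostictus, and the joint test. The counts reported were 3, 33, 12, 117, 7, 6, 10 and 9. With no low count filter they were 12, 127, 43, 224, 24, 31, 62 and 77, and with DESeq2 184, 200, 44, 281, 43, 64, 104 and 132. With all 30 libraries in the edgeR fit they were 14, 14, 5, 48, 0, 0, 7 and 5. The 0 counts had 1084 and 862 of 22430 tested genes at an unadjusted p under 0.05. At an adjusted p under 0.01 they were 0, 11, 0, 18, 0, 1, 4 and 3. Fitted alone, H. burtoni had 16, E. cyanostictus 155 and L. attenuatus 216. Without the replicate block, where the pairing by fish is not used, the counts were 4, 3, 2, 5, 1, 2, 1 and 2. With RLE scaling all 8 counts stayed within 1.5 times those reported.

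Leaving out 1 fish at a time gave ranges of 0 to 13, 9 to 542, 1 to 24, 15 to 292, 0 to 202, 2 to 41, 1 to 85 and 1 to 178 for these counts. The direction of the 3 common calls held in all alternatives that tested them. Their edgeR or DESeq2 adjusted p was under 0.05 in 7 of 10 alternatives for ID 100701009 (2.21e-12 to 0.0732), 8 of 11 for ID 102077349 (8.19e-13 to 0.188) and 4 of 11 for ID 100697991 (2.53e-16 to 0.994). With 1 fish left out, ID 100704579 had a log2 change in E. cyanostictus from -1.62 (without fish 4) to 0.491 (without fish 3, reversed in sign).

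Alternatives for the lists were added after the data were seen. The H. burtoni list had the same sign in E. cyanostictus at 63.5% with DESeq2, 81.2% with each species alone and 43.4% to 100% with 1 fish left out. In L. attenuatus these values were 84.5%, 93.8% and 73.5% to 92.9%. The L. attenuatus list ranged from 65.4% to 86.6% in H. burtoni and from 45.3% to 62.5% in E. cyanostictus with 1 fish left out. In the same way the E. cyanostictus list ranged from 50% to 100% in H. burtoni and from 34.8% to 100% in L. attenuatus. The 100% values came from leaving out a fish of E. cyanostictus itself. Mean correlations ranged from 0.231 to 0.287 within species and from 0.0542 to 0.127 between them. The share of the common step of 2 species followed by the third ranged from 48.6% to 78.4% in E. cyanostictus and 50% to 100% in L. attenuatus. The difference in size between the last step and section 2 over 1 ranged from -0.0108 (without fish 2, reversed) to 0.0661. For section 3 over 2 it ranged from -0.0699 to 0.0239 and was reversed without fish 1 (0.00727) and without fish 4 (0.0239). For section 4 over 3 it ranged from -0.24 to -0.149. The cause of these changes was not tested.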
